A study of Mus musculus with 4 samples.

Results

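Acod1, the gene of the enzyme that makes itaconate, and 8 genes of citric acid cycle enzymes were followed in cultured mouse macrophages, phagocytes that had been derived from bone marrow as primary cells. The 9 genes were Acod1, Idh1, Idh2, Idh3a, Ogdh, Sdha, Sdhb, Fh1 and Mdh2. The set was chosen with earlier results of these data known, by gene symbol and by no threshold on a measured value. Each symbol matched 1 gene, and they are 9 of the 55536 genes in the deposited tables. Polyadenylated RNA was sequenced from whole extracts of C57BL/6J cells stimulated for 60 minutes with 100 ng/mL of an agent that is called lipid A in one label, the part of bacterial lipopolysaccharide seen by Toll-like receptor 4, and lipoprotein A in others. The 4 libraries formed a single group, had the biological replicate numbers 1 to 4 with 1 technical replicate apiece, and carried the same donor label. The labels name no transgene or deletion, sex and age were not collected, and nothing says that the libraries came from separate animals or cultures. P-values over libraries therefore cover the scatter of these 4 samples alone, and that scatter may be technical. No unstimulated cells were analysed here, so the values are levels and differences between genes or libraries, and none is a response to the stimulus.

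The citric acid cycle oxidises acetyl units in the mitochondrion, passing from citrate through isocitrate, 2-oxoglutarate, succinate, fumarate and malate to oxaloacetate, and hands the electrons to the respiratory chain. Acod1 (also called Irg1) draws on this cycle: its mitochondrial enzyme removes carbon dioxide from cis-aconitate, an intermediate on the way from citrate to isocitrate, and releases itaconate. In macrophages exposed to bacterial products Acod1 is known to be strongly induced, and itaconate is known to inhibit succinate dehydrogenase, the enzyme that Sdha and Sdhb encode in part.

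Replicate 1 had the lowest total, 26917324 gene counts, and replicate 4 the highest, 39438414, and 10250 genes reached 1 TPM (a length-corrected relative transcript level) in every library. Ribosomal RNA genes took 12.34% of gene counts in replicate 1, 3.258% in replicate 2, 4.437% in replicate 3 and 6.985% in replicate 4. All 10 macrophage markers, among them Lyz2, Csf1r and Adgre1, were above 1 TPM throughout, and the median of their means was 525.7 TPM. Of 10 neutrophil markers, 4 did so, and their summed level was 198.6 TPM in replicate 1, 108.4 TPM in replicate 2, 730.1 TPM in replicate 3 and 69.16 TPM in replicate 4. The defining neutrophil surface gene Ly6g was at 0 in 3 libraries and at 0.12 TPM in replicate 3. The summed lists for B cells, for T and NK cells, for erythroid cells, for dendritic cells and for mast cells and basophils stayed at or below 8.47 TPM in every library. The stromal and endothelial list summed to between 38.43 and 81.11 TPM, nearly all of it from Vcam1 (37.41 to 79.25 TPM), while the fibroblast gene Dcn was at 0.08 TPM or below.

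All 9 genes were expressed in every library, with means over the 4 libraries between 20.7 and 324.5 TPM. Acod1 stood highest, followed by Idh1, Mdh2, Sdha, Sdhb, Idh2, Ogdh, Fh1 and Idh3a. The median of the 9 means was 113.6 TPM, beside 11.3 TPM over all 12626 genes tested. Acod1, Idh1, Idh3a and Mdh2 were called variable, which means a spread between libraries beyond counting noise and at least 2-fold in counts scaled to library size. That made 4 of the 9, beside 33% of the 12626 genes tested. The scaled counts of Idh2, Ogdh, Sdha, Sdhb and Fh1 stayed within 1.33-fold. In bulk RNA, fewer cells of a type and less RNA per cell cannot be told apart.

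**Figure D1:**
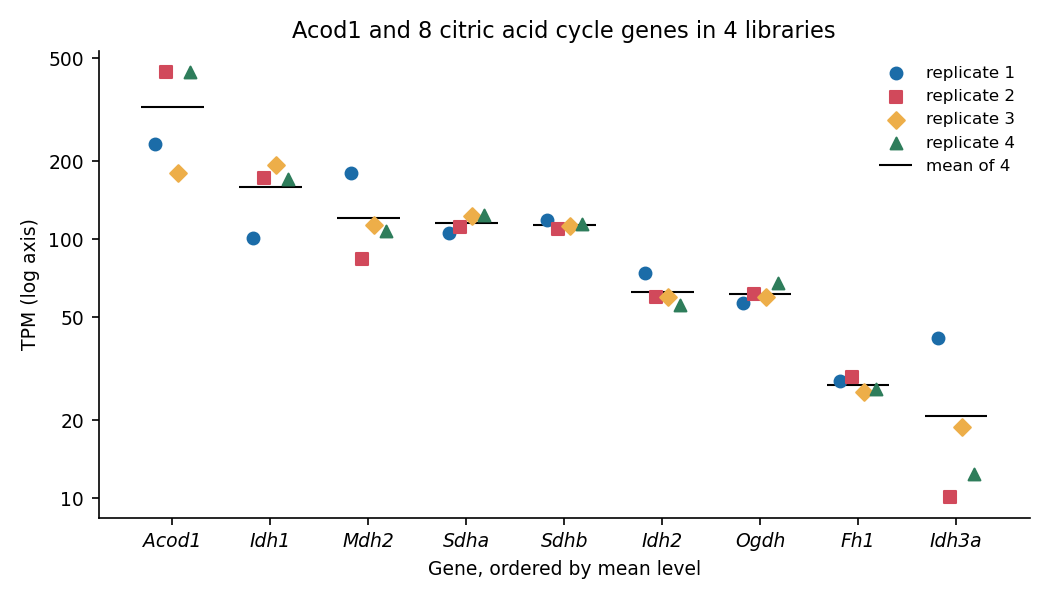
TPM (log axis) of Acod1 and 8 citric acid cycle genes in each of the 4 libraries, with 1 marker per library and a black line at the mean of 4; genes are ordered by mean level. Acod1 has a high pair of libraries near 443 TPM and a low pair at 232.9 and 179.6 TPM, and Idh3a in replicate 1 (41.47 TPM) stands above its other 3 values.

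Acod1 lies on chromosome 14 (mm10, chr14:103046977-103056573, plus strand) and has 1 annotated transcript of 2623 bases, so all of its reads were assigned to a protein-coding message. It was measured at 232.9 TPM in replicate 1, 443.0 TPM in replicate 2, 179.6 TPM in replicate 3 and 442.6 TPM in replicate 4. Replicates 2 and 4 were the high pair and replicates 1 and 3 the low pair. The mean was 324.5 ± 138 TPM (SD, n = 4), which placed the gene at rank 409 among protein-coding genes. The counts behind these levels were 9626, 20586, 10544 and 27637 in replicates 1 to 4. The authors' deposited credibility intervals for the posterior mean TPM were apart in 6 of 6 pairs of libraries. For replicates 2 and 4, alike in TPM, they were 409.8 to 421.3 and 422.1 to 432.3, below both TPM values and in the reverse order. No difference in level between replicates 2 and 4 is read from this. After scaling to effective library size the highest count was 2.5-fold the lowest, a spread beyond counting noise (chi-square test over libraries with Benjamini-Hochberg adjustment, adjusted p = 1e-300, the smallest value written).

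The stretch just before Acod1 is shown because it holds a motif that no window of the other members held. It comes from the RefSeq promoter table for GRCm38.p6 (chr14:103046762-103046976, plus strand, 215 bases) and stops where the GENCODE gene begins. Capitals mark GGAAATTCC, which has the form of a kappaB site, the element that NF-kappaB binds, and AAGTGAAA, which has the AANNGAAA form bound by interferon regulatory factors.

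Acod1 upstream: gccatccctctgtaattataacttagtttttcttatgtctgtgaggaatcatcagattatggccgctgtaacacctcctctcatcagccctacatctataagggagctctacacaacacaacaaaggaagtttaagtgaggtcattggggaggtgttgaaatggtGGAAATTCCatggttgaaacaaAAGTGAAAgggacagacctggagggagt

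The GGAAATTCC match lies 85 to 77 bases before the RefSeq start and the AANNGAAA match 63 to 56 bases before it. A TATAAA match lies 28 to 23 bases before the RefSeq start. GENCODE places the start of the gene further upstream, so the TATAAA match falls inside the GENCODE gene and outside the stretch shown. These motifs were picked after the Acod1 sequence had been seen, and both strands were searched in windows running from 250 bases before to 50 bases after each start. GGAAATTCC was found in 0.317% of 32851 RefSeq windows, TATAAA in 13.6% and AANNGAAA in 23.9%. Of the 8 members that the table holds, Acod1 alone had GGAAATTCC or TATAAA in a window, whereas AANNGAAA was also found in windows of Ogdh. TGACTCA, the form bound by AP-1 factors, was in no window of a member, beside 5.2% of all windows. CCAAT, in 37.4% of all windows, was found for 7 of the 8, among them Acod1 but not Mdh2. The motifs are matches of letters, and binding was not measured.

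Acod1 also had the window with the fewest CG dinucleotides. It held 2, and the windows of Idh1, Idh2, Ogdh, Sdha, Sdhb, Fh1 and Mdh2 held between 11 and 37, beside a median of 7 over all windows. The share of G and C was 47.0% in the Acod1 window and 68.3% in that of Idh2, beside a median of 52.7%. Over the windows of all members other than Acod1 it ran from 49.3% to 72.3%, both ends being windows of Ogdh. The upstream stretch of Idh2 is given for contrast (GRCm38.p6, chr7:80115393-80115600, minus strand, 208 bases, RefSeq), with each CG in capitals.

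Idh2 upstream: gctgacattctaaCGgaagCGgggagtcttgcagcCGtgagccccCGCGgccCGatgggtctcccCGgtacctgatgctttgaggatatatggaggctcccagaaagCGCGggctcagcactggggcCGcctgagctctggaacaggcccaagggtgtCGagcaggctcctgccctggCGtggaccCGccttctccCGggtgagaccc

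**Figure D2:**
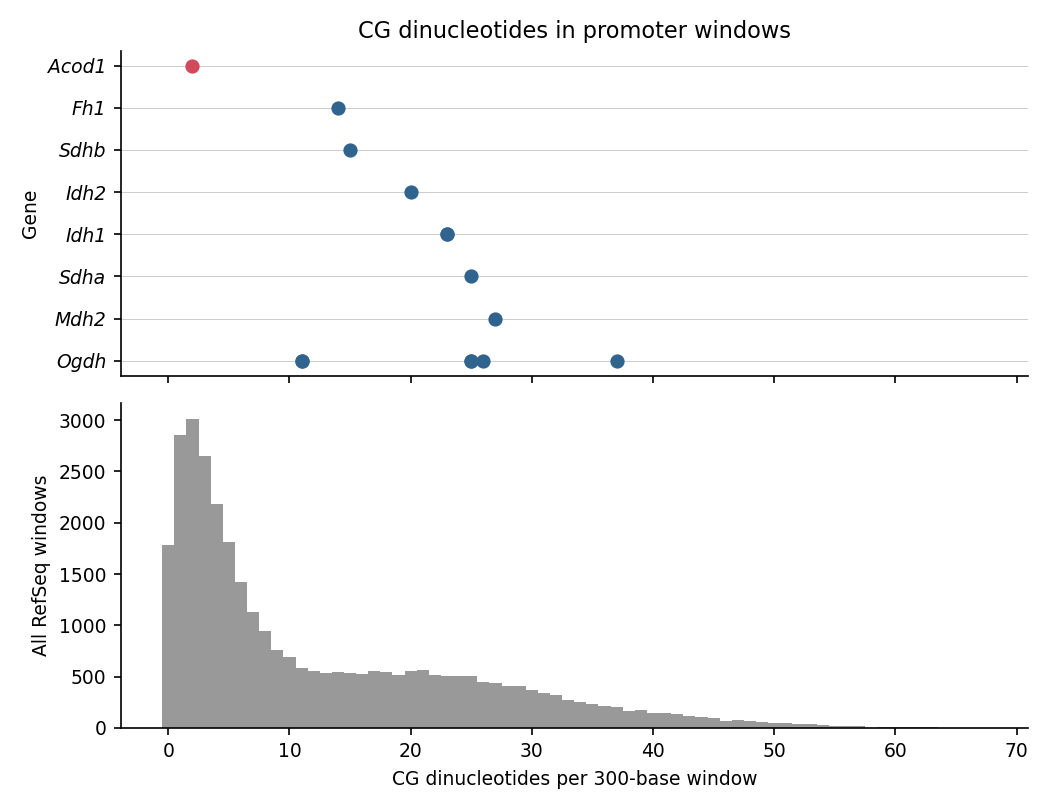
Upper panel: number of CG dinucleotides in each RefSeq promoter window of 300 bases for the 8 members in the table, 1 point per window, with Acod1 in red. Lower panel: the same count for all 32851 windows, where Acod1 (2) lies in the low peak and the other members (11 to 37) lie to its right.

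Acod1 was above the median of the other 8 members in all 4 libraries, although below Idh1 in replicate 3. It stood 2.69-fold over that median in replicate 1, 6.18-fold in replicate 2, 2.19-fold in replicate 3 and 5.16-fold in replicate 4. The median itself was 87.59, 72.52, 85.98 and 87.89 TPM in replicates 1 to 4. That range was narrower than that of Acod1, but a median over 8 genes evens out the spread of single genes. Of the single members, Idh3a ranged more widely in TPM than Acod1, 4.09-fold beside 2.47-fold, and the others less widely. The mean difference of Acod1 from the median was 1.89 ± 0.72 (SD, n = 4) on the log2(TPM + 0.1) scale. An exact 2-sided sign-flip permutation test gave p = 0.125, adjusted p = 0.1875 over 3 ratios. With 4 libraries 0.125 is the smallest p this test can reach.

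The genes whose pattern over the 4 libraries lay closest to that of Acod1, among 9663 genes averaging 100 or more counts, were Tbc1d16, AC167363.2, Icam1, Gm10425 and Isg20. Their root-mean-square distances from Acod1 in deviations of log2(CPM + 1) were between 0.0339 and 0.0897. Icam1, an adhesion molecule of leukocytes and endothelium, was measured at 454.6, 819.3, 331.4 and 755.3 TPM in replicates 1 to 4. Its high and low pairs were those of Acod1, which follows from its choice by closeness in pattern. Isg20, an exonuclease gene induced by interferon, was at 7.60, 19.02, 7.28 and 17.99 TPM. Tbc1d16, a gene of the Rab GTPase-activating family, was at 2.42, 4.72, 1.82 and 4.38 TPM. Gm10425 is annotated as antisense, and without a stated strand setting its reads cannot be told apart from those of the gene it overlaps. Of the other members, Ogdh lay nearest to Acod1, at rank 2855, and Idh3a lay farthest, at rank 9438. The neutrophil markers were lowest in replicates 4 and 2, where Acod1 was high, and highest in replicates 3 and 1, where it was low. The summed level of the macrophage markers went the other way, at 20252, 36116, 21085 and 29088 TPM in replicates 1 to 4. Most of each sum was Lyz2, at 14540.7, 28530.0, 14293.0 and 21375.3 TPM in replicates 1 to 4. Lyz2, Csf1r, Cd14, Lamp2, Adgre1 and Spi1 were each higher in replicates 2 and 4 than in replicates 1 and 3, as Acod1 was. Cd68, Itgam, Fcgr1 and Mertk of the same list were not. Cd68 and Mertk were highest in replicate 3, and Itgam and Fcgr1 in replicate 1. The part of either marker list in the result was not tested.

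Isocitrate is turned into 2-oxoglutarate by 3 kinds of enzyme, and their genes had different levels and patterns. Idh1 encodes the NADP-dependent enzyme of the cytosol and peroxisome, Idh2 its mitochondrial counterpart, and Idh3a the catalytic subunit of the NAD-dependent enzyme that runs the cycle step. Of these 3 genes Idh1 was the most abundant and was lowest in replicate 1, whereas Idh3a was the least abundant and was highest in replicate 1.

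Idh1 (chr1:65158616-65186500, minus strand) was measured at 101.0 TPM in replicate 1, 172.7 TPM in replicate 2, 194.2 TPM in replicate 3 and 170.8 TPM in replicate 4. Replicate 1 stood alone below the other 3. The mean was 159.7 ± 40.5 TPM (SD, n = 4) and the range in scaled counts 2.10-fold. Idh1 lost its call without replicate 1 (1.19-fold) and without replicate 3 (1.88-fold). Its closest genes in pattern were Kctd21, Usp11, Csrp1, Dhrs3 and Plbd1, at distances of 0.0138 to 0.0374. Dhrs3, a retinal reductase, stood at 225.4, 428.6, 513.6 and 458.8 TPM, and Csrp1, a LIM domain protein of the cytoskeleton, at 86.13, 151.1, 162.9 and 150.8 TPM. The main transcript Idh1-201 held 97.9% ± 1.80 of the gene's TPM (SD, n = 4).

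Idh2 (chr7:80094846-80115392, minus strand) had 74.12 TPM in replicate 1, 60.05 TPM in replicate 2, 59.68 TPM in replicate 3 and 55.78 TPM in replicate 4. Replicate 1 was the highest for Idh2 and the lowest for Idh1. Idh2 averaged 62.41 ± 8.04 TPM (SD, n = 4) and was below Idh1 in all 4 libraries. The level of Idh2 was 0.734 of that of Idh1 in replicate 1 and 0.348, 0.308 and 0.327 of it in replicates 2, 3 and 4. On the log2(TPM + 0.1) scale the difference of Idh2 from Idh1 was -1.32 ± 0.59 (SD, n = 4; exact sign-flip permutation p = 0.125, adjusted p = 0.1875 over 3 ratios). Without replicate 1 the mean difference was -1.61.

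Idh3a (chr9:54586334-54604661, plus strand) showed the widest spread of the 9 genes. It was measured at 41.47 TPM in replicate 1, 10.14 TPM in replicate 2, 18.79 TPM in replicate 3 and 12.39 TPM in replicate 4. Replicate 1 stood above the other 3, and the intervals of all 6 pairs of libraries were apart. The counts were 1384, 382, 842 and 650, and the highest scaled count was 3.98-fold the lowest (chi-square test with Benjamini-Hochberg adjustment, adjusted p = 4.82e-215). Without replicate 1 the range was 1.84-fold and Idh3a was no longer called variable.

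The partner subunits did not share this spread. Idh3b and Idh3g, which complete the NAD-dependent enzyme, were at 71.18 and 50.61 TPM in replicate 1, 61.40 and 62.86 TPM in replicate 2, 66.98 and 60.20 TPM in replicate 3, and 57.30 and 67.93 TPM in replicate 4. Their scaled counts ranged 1.10-fold for Idh3b and 1.45-fold for Idh3g, and neither was called variable. The ratio of Idh3a to the mean of both was 0.681 in replicate 1, 0.163 in replicate 2, 0.295 in replicate 3 and 0.198 in replicate 4, a 4.17-fold range. This ratio was chosen after its values were seen. Idh3a was thus below its partners in every library, and the gap was narrowest in replicate 1, whose ribosomal RNA share was the highest (12.34%); the part of that share in the result was not tested.

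**Figure D3:**
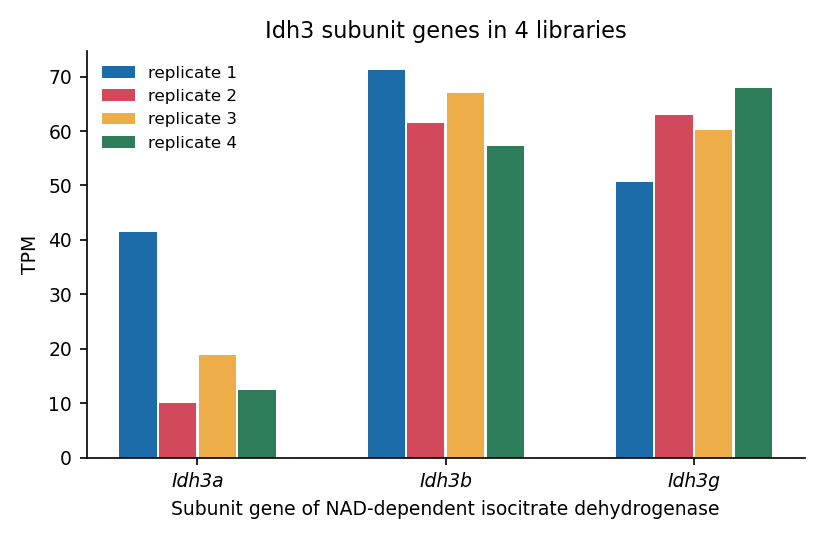
TPM of Idh3a, Idh3b and Idh3g, the subunit genes of the NAD-dependent isocitrate dehydrogenase, with 1 bar per library from 0. Idh3a has a tall bar in replicate 1 (41.47 TPM) and bars of 10.14 to 18.79 TPM in the other 3, whereas Idh3b and Idh3g stay between 50.61 and 71.18 TPM.

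The genes closest in pattern to Idh3a were Ppa1, Dis3, Wdr75, Cdk1 and Mtap, at distances of 0.0251 to 0.0620. Cdk1, the kinase that drives entry into mitosis, was at 75.13, 16.46, 39.93 and 21.88 TPM in replicates 1 to 4. Ppa1, the cytosolic inorganic pyrophosphatase, was at 30.56, 7.22, 12.62 and 9.22 TPM, and Mtap, an enzyme of methionine salvage, at 26.31, 6.05, 12.04 and 8.36 TPM. Each was highest in replicate 1 and lowest in replicate 2, as Idh3a was, which follows from their choice by closeness in pattern. Among the members Mdh2 was nearest to Idh3a, at rank 609, with a distance of 0.371.

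Ogdh (chr11:6291633-6356642, plus strand), the E1 subunit of the 2-oxoglutarate dehydrogenase complex, was measured at 57.00 TPM in replicate 1, 61.33 TPM in replicate 2, 59.65 TPM in replicate 3 and 68.08 TPM in replicate 4. The libraries lay close together, at 61.52 ± 4.73 TPM (SD, n = 4). The E2 subunit gene Dlst was at a like level, 63.78 ± 3.81 TPM (SD, n = 4), and the ratio of Ogdh to Dlst was 0.821, 1.00, 0.957 and 1.10 in replicates 1 to 4. Dld, the E3 subunit gene that this complex shares with pyruvate dehydrogenase, was at 58.27 ± 11.7 TPM (SD, n = 4). Ogdhl, a relative of Ogdh known from brain, was at 0.07 TPM or below in every library.

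For Ogdh the 2 transcript tables gave much the same division of messages. Ogdh-201 held 81.6%, 83.2%, 84.4% and 81.0% of the gene's TPM in replicates 1 to 4 in the first table and 79.9%, 81.4%, 84.5% and 81.4% in the second. Ogdh-202 held 12.6% to 16.0% in the first table and 12.2% to 15.7% in the second. The coding parts of both transcripts differ in a single exon, which is fully coding in each and which neither transcript shares. The exon of Ogdh-201 lies at chr11:6316978-6317080 (103 bases) and that of Ogdh-202 at chr11:6316765-6316855 (91 bases), on the plus strand of mm10. The difference of 12 bases is a multiple of 3, so both transcripts go on in the same frame. Both are shown as the sequences that set these transcripts apart, read from the GENCODE M21 transcripts.

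Ogdh-201 exon: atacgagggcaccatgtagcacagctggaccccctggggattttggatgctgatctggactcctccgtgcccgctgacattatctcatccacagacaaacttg
Ogdh-202 exon: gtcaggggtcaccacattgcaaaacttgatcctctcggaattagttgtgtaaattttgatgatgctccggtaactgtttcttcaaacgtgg

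The 2 member genes of succinate dehydrogenase, the enzyme that itaconate inhibits, stayed within 1.29-fold between libraries. Sdha (chr13:74322254-74350280, minus strand), the flavoprotein that binds succinate, was measured at 105.7 TPM in replicate 1, 111.5 TPM in replicate 2, 123.2 TPM in replicate 3 and 123.8 TPM in replicate 4. Sdhb (chr4:140961203-140979193, plus strand), the iron-sulphur subunit, was at 118.3, 109.4, 112.3 and 114.6 TPM in the same libraries. Sdha and Sdhb averaged 116.0 ± 8.90 and 113.6 ± 3.76 TPM (SD, n = 4 each), and their ranges overlapped. The ratio of Sdha to Sdhb was 0.894 in replicate 1 and 1.02, 1.10 and 1.08 in replicates 2, 3 and 4. On the log2(TPM + 0.1) scale it was 0.03 ± 0.13 (SD, n = 4; exact sign-flip permutation p = 0.875), with values in single libraries from -0.16 to 0.13. Its sign depended on the libraries entered, since it was -0.01 without replicate 3.

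Sdhb had the smallest spread of the 9 genes, 1.10-fold in scaled counts (chi-square test with Benjamini-Hochberg adjustment, adjusted p = 0.0181). It was not beyond counting noise without replicate 2 (adjusted p = 0.462) or without replicate 4 (adjusted p = 0.0836), by the same test. The membrane anchor genes Sdhc and Sdhd were at 74.34 ± 10.6 and 102.9 ± 2.39 TPM (SD, n = 4 each). Sdhd was the one tested gene of the cycle that did not differ beyond counting noise (adjusted p = 0.331 by the same test). Of the 4 assembly factor genes, Sdhaf2, which in yeast and human cells helps attach the flavin to the enzyme, was the highest at 31.68 ± 2.14 TPM, followed by Sdhaf4 at 21.88 ± 3.25 TPM and Sdhaf1 at 2.768 ± 0.535 TPM (SD, n = 4 each). None of the 4 was called variable.

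Fh1 (chr1:175600374-175625635, minus strand) encodes fumarase, which hydrates fumarate to malate. It was measured at 28.27 TPM in replicate 1, 29.27 TPM in replicate 2, 25.69 TPM in replicate 3 and 26.48 TPM in replicate 4. The deposited intervals of the 4 libraries all overlapped. The scaled counts ranged 1.33-fold, a spread beyond counting noise (chi-square test with Benjamini-Hochberg adjustment, adjusted p = 5.70e-11). In TPM the range was 1.14-fold, and the mean was 27.43 ± 1.64 TPM (SD, n = 4). The full-length Fh1-201 held 75.9%, 72.2%, 56.4% and 61.7% of this in the first transcript table. The rest was assigned almost wholly to Fh1-205, a coding transcript of 542 bases and 4 exons, beside 10 exons in Fh1-201. In the second table Fh1-201 held 53.7% to 63.2%.

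Mdh2 (chr5:135778480-135790398, plus strand) encodes the mitochondrial malate dehydrogenase, which closes the cycle at oxaloacetate. It was measured at 179.7 TPM in replicate 1, 83.70 TPM in replicate 2, 113.5 TPM in replicate 3 and 107.7 TPM in replicate 4. Replicate 1 stood above the other 3, as for Idh3a, and replicate 2 was lowest for both genes. Mdh2 averaged 121.1 ± 41.1 TPM (SD, n = 4), with a 2.04-fold range in scaled counts (chi-square test with Benjamini-Hochberg adjustment, adjusted p = 5.73e-149). It lost its call without replicate 1 (1.39-fold), without replicate 2 (1.51-fold) and without replicate 4 (1.99-fold). The cytosolic enzyme gene Mdh1 went another way, at 82.09, 81.05, 104.9 and 106.2 TPM in replicates 1 to 4. The ratio of Mdh2 to Mdh1 was 2.19 in replicate 1 and 1.03, 1.08 and 1.01 in replicates 2, 3 and 4.

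The genes closest in pattern to Mdh2 were Abt1, Bms1, Psme3, Gpn1 and Nup54, at distances of 0.0260 to 0.0371. Psme3, a proteasome activator subunit, was at 75.62, 36.46, 46.74 and 46.70 TPM in replicates 1 to 4, and Nup54, a nuclear pore protein, at 41.87, 20.81, 25.68 and 26.64 TPM. Bms1, a factor of ribosome assembly, was at 20.29, 9.99, 13.65 and 12.58 TPM. Like Mdh2, these 3 were highest in replicate 1 and lowest in replicate 2, which follows from their choice by closeness in pattern.

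**Figure D4:**
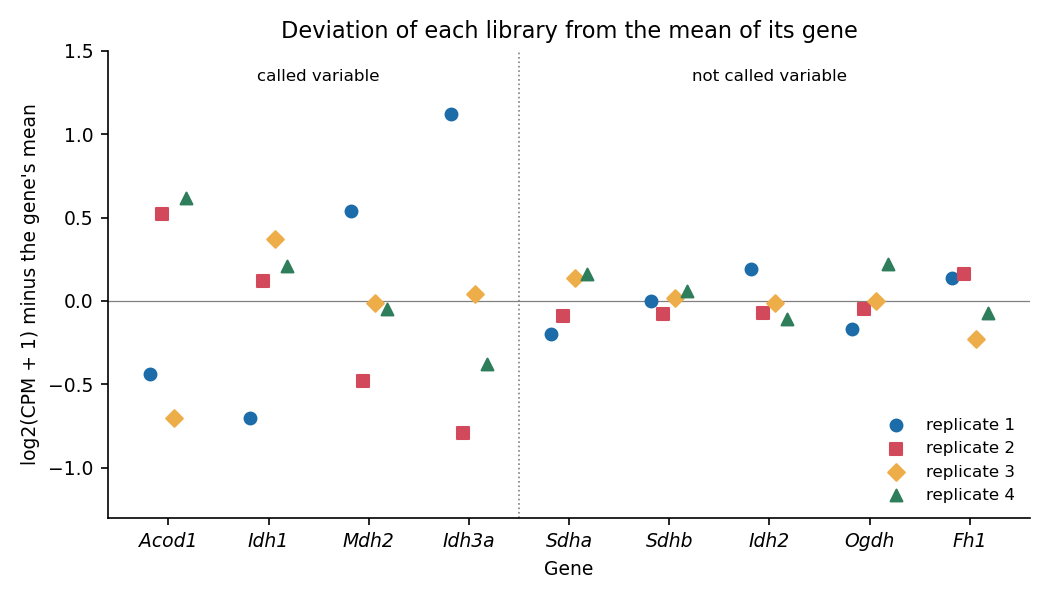
Deviation of each library from the gene's own mean of log2(CPM + 1), for the 4 genes called variable (left of the dotted line) and the 5 not called (right), with 1 marker per library. Replicate 1 is the highest for Idh3a (1.12) and Mdh2 (0.54) and the lowest for Idh1 (-0.70), while Acod1 has replicates 2 and 4 above its mean (0.52 and 0.62).

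All 9 members differed between libraries beyond counting noise, beside 88.6% of the 12626 genes tested. With the 2-fold requirement it was 4 of the 9, beside 33%. The members' shares are close to these backgrounds for a list of 9, and nothing particular to the members is read from them. Without replicate 1 only Acod1 was called variable, beside 16.1% of genes then. Acod1 kept its call without each of the 4 libraries in turn, with ranges from 2.08-fold to 2.5-fold. The library left out in the first case had the highest ribosomal RNA share, 12.34%, and the lowest depth, and the part of either in the calls was not tested.

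In the order of the 9 levels, 2 of the 8 pairs of neighbours had the same sign in all 4 libraries and ranges that did not overlap. Sdhb was above Idh2 by 0.87 ± 0.15 and Ogdh above Fh1 by 1.16 ± 0.16 on the log2(TPM + 0.1) scale (SD, n = 4 each; exact sign-flip permutation p = 0.125, adjusted p = 0.5 over 8 pairs, for each). The other 6 pairs overlapped. Acod1 was above Idh1 in 3 of 4 libraries and below it in replicate 3, Idh2 was above Ogdh in 2 of 4, and Mdh2 was above Sdha in 1 of 4, although its mean was higher. Fh1 was above Idh3a in 3 of 4 libraries, with replicate 1 the exception. Without replicate 1, 5 pairs had the same sign and no overlap.

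Beside Ogdh and Fh1, Mdh2 and Idh3a had TPM divided over several transcripts. Mdh2-201 held 70.8% to 79.1% in the first table and 83.4% to 97.8% in the second. Most of the rest was Mdh2-203, annotated as a target of nonsense-mediated decay, which lacks a coding exon of 169 bases (chr5:135783305-135783473) that Mdh2-201 has. Its share was 20.8% to 28.4% in the first table and 1.27% to 16.0% in the second. In TPM of coding transcripts alone Mdh2 still ranged 1.93-fold in the first table and 2.22-fold in the second.

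Among the 9 genes the 2 tables disagreed most on Idh3a. The coding Idh3a-205 held 53.3%, 53.0%, 46.4% and 66.8% of the gene's TPM in replicates 1 to 4 in the first table, but 28.3%, 18.7%, 28.2% and 34.7% in the second. Idh3a-204, annotated as a target of nonsense-mediated decay and carrying an extra exon of 95 bases (chr9:54592161-54592255), held 0% to 15.2% in the first table and 36.1% to 74.1% in the second. Idh3a-203, a retained-intron transcript, held 27.8% to 41.7% in the first table and 32% or less in the second. The share of Idh3a message that is coding is therefore not settled by these tables, whereas the spread between libraries was as large in coding TPM, 4.27-fold in the first table and 5.28-fold in the second. Idh2, Sdha and Sdhb gave no such disagreement, with main transcripts at 99.2%, 99.0% and 98.7% on average in the first table and 99.8%, 98.0% and 98.4% in the second.

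**Figure D5:**
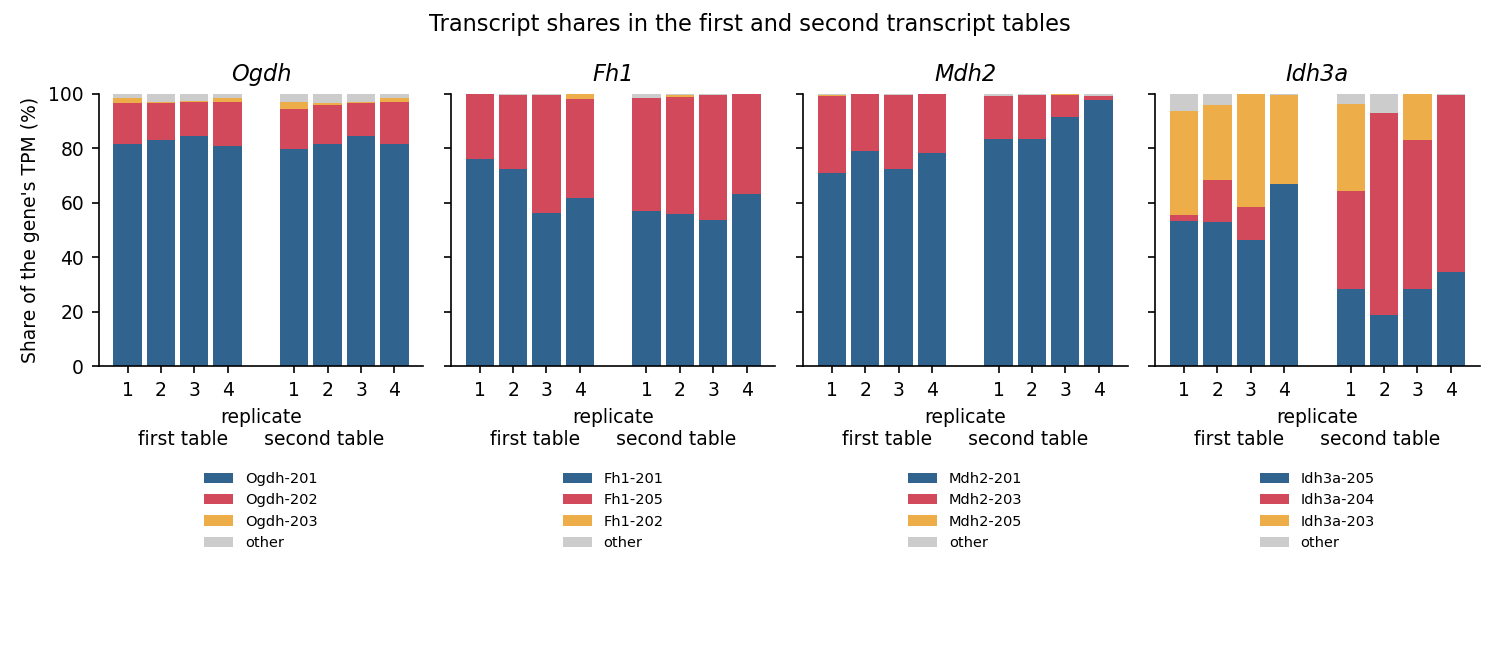
Share of each gene's TPM (percent) held by its 3 leading transcripts and by all others (grey), for Ogdh, Fh1, Mdh2 and Idh3a; in each panel the left 4 bars are replicates 1 to 4 in the first transcript table and the right 4 in the second. Ogdh looks alike in both tables, and in Idh3a the red share of Idh3a-204 is at most 15.2% on the left and 36.1% to 74.1% on the right.

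Of 14 further citric acid cycle genes, 13 reached 1 TPM in every library, all but Ogdhl, and 12 of the 13 tested differed beyond counting noise. By the chi-square test it was 12 with Benjamini-Hochberg adjustment, beside 88.6% of all genes tested, and also 12 with an unadjusted p under 0.05. With the 2-fold requirement 0 of 13 were called variable, beside 33% of all genes tested. It was 0 as well when that requirement was set beside the unadjusted p. Suclg2, the GTP-forming succinyl-CoA ligase subunit, came closest, at 19.70, 9.20, 13.83 and 9.30 TPM and a 1.98-fold range; scaled by total counts, or in the second quantification, it was called. The median range over the list was 1.27-fold, that over the 9 members 1.33-fold and that over all genes tested 1.68-fold. Citrate synthase, Cs, stood at 84.24 ± 9.69 TPM (SD, n = 4), the cytosolic aconitase Aco1 at 28.40 ± 2.12 TPM and the succinyl-CoA ligase subunits Suclg1 and Sucla2 at 41.51 ± 6.12 and 32.72 ± 8.41 TPM (SD, n = 4 each).

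Genes that bring pyruvate into the cycle included 4 of 12 tested that were called variable, beside 33% of all genes tested. The counts for the lists that follow are to be read against the same 33%. Mpc1, a subunit of the mitochondrial pyruvate carrier, was the highest of this list at 176.2, 332.0, 336.9 and 294.5 TPM in replicates 1 to 4. Replicate 1 was lowest, as for Idh1. The pyruvate dehydrogenase kinase gene Pdk2 (3.20, 6.90, 5.87 and 6.72 TPM) and phosphatase gene Pdp1 (11.10, 17.22, 21 and 14.62 TPM) were also lowest there, and Pcx, pyruvate carboxylase, was below 1 TPM throughout. The subunit genes Pdhb and Pdha1 were at 47.36 ± 7.28 and 40.22 ± 8.86 TPM (SD, n = 4 each) and were not called variable. In the second quantification Pdk2 and Pcx alone kept the call, as they did without replicate 3, and without replicate 1 no gene of this list did.

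Of 8 tested genes of glutamine and aspartate entry, 2 were called variable, the transporters Slc38a2 and Slc1a5. Slc38a2 was at 45.94, 44.17, 18.98 and 45.25 TPM and Slc1a5 at 13.10, 7.90, 4.37 and 8.14 TPM, both lowest in replicate 3, and neither was called without that library. Without replicate 1 Slc38a2 alone was called. The highest levels in this list were those of Glud1, glutamate dehydrogenase, at 115.0 ± 15.5 TPM, Got1 at 83.84 ± 20.5 TPM and Got2 at 43.75 ± 9.43 TPM (SD, n = 4 each). Got1 and Got2 are the cytosolic and mitochondrial aspartate aminotransferases. Among genes that export or use citrate and its neighbours, Slc25a11 (68.72 ± 6.98 TPM), Acly (65.45 ± 12.8 TPM) and Slc25a1 (52.79 ± 5.04 TPM) stood highest (SD, n = 4 each), and malic enzyme Me1, at 1.91 TPM or below, was the 1 of 6 called variable. Me3 had a count of 0 in every library.

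Genes that break down itaconate or 2-hydroxyglutarate were low. Suclg1, which also charges itaconate with coenzyme A, was the highest of the 7, followed by Auh at 15.96 ± 4.34 TPM and D2hgdh at 5.310 ± 0.932 TPM (SD, n = 4 each). Clybl, in human cells the lyase of citramalyl-CoA, averaged 4.222 ± 1.11 TPM (SD, n = 4). Of 6 genes whose products or pathways itaconate is known to act on, 2, Nfe2l2 and Atf3, were called variable. Nfe2l2, the transcription factor NRF2, was at 285.6, 596.5, 365.0 and 485.4 TPM in replicates 1 to 4, and Atf3, a stress-induced transcription factor, at 412.1, 783.3, 749.3 and 887.9 TPM. Nfkbiz, which encodes the nuclear inhibitor-like protein I-kappaB-zeta, was the highest of the 6 at 780.6, 1039.0, 545.8 and 946.9 TPM. Like Acod1, Nfkbiz was higher in replicates 2 and 4 than in replicates 1 and 3, and so were Nfe2l2, Atf3, Keap1 and Tet2 of the same list, but not Hif1a. The macrophage markers Lyz2, Csf1r, Cd14, Lamp2, Adgre1 and Spi1 had this order of libraries too. The share of all genes with this order was not counted, so nothing particular to this list is read from it. A link of these genes to Acod1 was not tested. Neither Nfe2l2 nor Atf3 was called in the second quantification or without replicate 1; Atf3 alone was called without replicate 2, and Nfe2l2 alone without replicate 4.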

How the data were processed

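The 4 libraries each had a deposited gene table and 2 transcript tables on mm10 with GENCODE M21, per the deposited file lists; the sources used here do not give tools, versions or strand setting. Expected counts were deposited per gene and transcript and were rounded to whole numbers for tests. TPM values were deposited by the authors and sum over every row of a table. The percent of a gene's TPM held by each transcript was deposited by the authors, and shares used here were recomputed from TPM. The bounds of the credibility interval of posterior mean TPM, a non-negative signal per the file headers, have no stated level; the deposited TPM can lie outside them. The gene table and first transcript table came from a transcriptome alignment. The second transcript table, made straight from the reads, gave estimated counts and TPM, summed to genes as the second quantification. Of 81881 rows, 26345 were not genes and were left out; 26344 of them were at 0 and the other, phiX, held 0.1028% to 0.1176% of counts.

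Genes averaging 10 or more counts were tested for spread beyond counting noise with a chi-square test (3 degrees of freedom) on counts scaled by TMM effective library sizes (edgeR 4.0.16, R 4.3.3), with Benjamini-Hochberg adjustment at 0.05 over all 12626 genes. Those that also ranged at least 2.0-fold were called variable. This covers counting error only. Ratios and neighbours in level were tested by exact 2-sided sign-flip permutation over libraries on log2(TPM + 0.1), a scale that understates differences of low genes. DESeq2 1.42.0 gave alternative size factors. The rest ran in Python 3.11.15 with NumPy 2.4.6, pandas 2.3.3, SciPy 1.17.1 and matplotlib 3.10.9, and the chi-square script was tested on simulated data. Named genes were the 9 members, all other cycle genes, the 3 highest and every variable gene of each further list (marker lists apart), and the 5 genes closest in pattern to each variable member. Markers, Clybl, Keap1, Tet2, Hif1a and the subunit ratios were named beside them after their values were seen. Some genes that this rule names are not reported here. The members and lists were chosen with earlier results of these data known.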

Additional observations from a re-analysis of the deposited data

Results flagged for a closer look

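In 3 genes and 2 ratios 1 library stood apart from the other 3, by a gap, relative to the whole range, above Dixon's critical value for 4 samples. In all, 57 genes and ratios were looked at, and chance alone flags about 1 group in 20. Replicate 1 held the highest value of the ratio of Mdh2 to Mdh1 (2.19), of the log2 ratio of Idh2 to Idh1 (-0.45) and of Dlst (69.44 TPM). Replicate 3 held the lowest value of Slc38a2 (18.98 TPM) and of Slc25a11 (58.35 TPM). Replicate 1 had the highest ribosomal RNA share (12.34%) and replicate 3 the highest summed neutrophil markers (730.1 TPM), and the part of either was not tested. None of the 9 members passed this gap in its own TPM.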

How the results depend on the processing

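Acod1, Idh1, Idh3a and Mdh2 were the 4 members called variable under DESeq2 size factors, total counts, no filter on low counts, the second quantification and a 1.5-fold range, and their edgeR coefficients of variation were the ones above the trend. Over all genes, 33.1% were called variable under DESeq2 size factors, 33.3% with total counts, 24.4% without the filter and 36.1% in the second quantification. Leaving out each library in turn gave between 1 (without replicate 1) and 3 such members, 8 to 9 members beyond counting noise, and 2 to 5 neighbour pairs with the same sign and no overlap. Over all genes, 16.1% were then variable without replicate 1 and 26.5% to 29.2% without another library. Between 75.9% and 84.4% were beyond counting noise. Among the other cycle genes 1, Suclg2, was called with total counts and 1 in the second quantification. The log2 ratio of Sdha to Sdhb ran from -0.01 to 0.09 when libraries were left out; it was -0.01 without replicate 3 and -0.00 without replicate 4. The ratio of Acod1 to the median of the other 8 ran from 1.64 to 2.14 and that of Idh2 to Idh1 from -1.61 to -1.19, with the same sign in all alternatives run. The mean ratio of Idh3a to its partners was 0.219 without replicate 1. In the second quantification the median gene moved by -0.47, -0.56, -0.19 and -0.23 in log2 TPM in replicates 1 to 4; leaving out ribosomal RNA and mitochondrial genes moved all levels by 0.25, 0.13, 0.20 and 0.20. In all, 181 alternative values stayed the same, 32 moved and 2 reversed. Ratios and neighbours in level were paired within each library. No paired comparison of groups was possible because the 4 libraries form 1 group. Without unstimulated cells no response can be measured, and the exact sign-flip permutation test over 4 libraries cannot go below p = 0.125.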

Other observations

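The second quantification gave more reads to every member than the first did, and by more in the 2 libraries with more recorded read files. Its count was 1.25 to 1.33 times the first in replicates 1 and 2, which list 6 read files each, and 1.04 to 1.15 times in replicates 3 and 4, which list 4 each. This was not particular to the members. In replicates 1 to 4 the ratio was 1.23, 1.24, 1.04 and 1.05 for Cs, and 1.22, 1.23, 1.03 and 1.03 for Lyz2. For Mpc1 it was 1.41, 1.41, 1.13 and 1.13. Acod1 had the highest such ratio of the members in every library, at 1.31, 1.33, 1.14 and 1.15 in replicates 1 to 4. The neutrophil granule genes Ngp (17.64, 6.44, 66.31 and 3.67 TPM) and Ltf (3.46, 2.07, 19.42 and 1.15 TPM) peaked in replicate 3, where the Acod1 level was lowest (179.6 TPM). In the second quantification Acod1 was instead lowest in replicate 1, at 165.4 TPM, beside 166.9 TPM in replicate 3. A link between these granule genes and Acod1 was not tested.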
